A study of Sus scrofa with 8 samples.

Results

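The tumor necrosis factor (TNF) ligand and receptor superfamily was followed by single-nucleus RNA sequencing (snRNAseq) in pig retinas after intravitreal injection of AAV2.7m8/CAG-GFP, a modified AAV2 vector that carries GFP under the ubiquitous CAG promoter, or of vehicle. The members were the 24 gene symbols listed in the files that begin with TNFRSF or TNFSF, out of 35683 genes including EGFP, and comprised 14 receptors (TNFRSF) and 10 ligands (TNFSF). The 8 retinas sequenced came from 6 female Yucatan minipigs that were 3 to 5 months old. At week 2 both eyes of animal 7221 (AAV) and both eyes of animal 7222 (vehicle) were sequenced. At week 4 the left eyes of animals 7248 and 7249 (AAV) and of animals 7250 and 7251 (vehicle) were sequenced. The vector was given at 5e11 vg/eye. Every animal, controls included, had received Vitrase (a hyaluronidase) in the vitreous before day 0 and methylprednisolone each week, so all levels given here are those of steroid-treated retinas. Each of the 4 groups also formed a separate labelled batch, so that batch cannot be told apart from treatment and week.

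Ligands of this superfamily are mostly made as trimers on the cell surface, from which some are released, and they signal by clustering their receptors. Receptors such as TNFRSF1A carry a death domain and can start caspase activation, while TNFRSF1B, TNFRSF4, TNFRSF9, TNFRSF12A, TNFRSF13C and TNFRSF18 bind TRAF adaptors and feed NF-kB. Several pairs are costimulators of T cells or survival factors of B and plasma cells, and in the retina the family is known mainly from inflammation, gliosis and death of ganglion cells.

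Nuclei were sorted on DAPI, and unique molecular identifiers (UMIs) were counted per gene and nucleus. The retinas held 121544835 to 173614051 UMIs in all, and 350568 of 388491 barcodes passed the filter on mitochondrial share. Nuclei were gated into 16 classes by marker genes that include no member of the superfamily. The gate took 284638 nuclei, or 81.2% of those kept, of which 4.56% lay near the boundary between classes, and between 0.178% and 0.514% of barcodes were shared by any pair of lanes. Each class carries the name of its markers (rod for rod-like, and so on). Levels are UMIs of a gene per 1000000 UMIs of the class in a retina (CPM), and serve to compare 1 gene across classes and retinas, not 1 gene with another. Classes were unequal between groups. Rods held a larger share of the UMIs of kept nuclei in both AAV retinas of week 4 than in either vehicle retina of that week. At week 2 their share was smaller in both AAV eyes than in either vehicle eye. The immune classes were unequal as well. Myeloid nuclei (microglia and macrophages together) numbered 1383 and 874 in the AAV retinas of week 4 against 75 and 79 in the vehicle retinas of that week, and 129, 86, 89 and 91 at week 2. T or NK nuclei numbered 935 and 749, B nuclei 268 and 142, plasma nuclei 436 and 533 and dendritic nuclei 62 and 51 in the AAV retinas of week 4, with 0 in both vehicle retinas of week 4 and at most 9 of any of these classes in a retina at week 2. Sums over all nuclei of a retina therefore mix the number of nuclei of a class with the RNA of each, which cannot be told apart in such sums.

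All 24 members were found in the RefSeq annotation of Sscrofa11.1, the build of the files, and several lie side by side. TNFRSF18 and TNFRSF4 are neighbours on chromosome 6 on the same strand, 4.53 kb apart. TNFSF12 and TNFSF13 lie 317 bases apart on chromosome 12 on the same strand, and reads of such close genes may be hard to assign. TNFSF15 and TNFSF8 on chromosome 1 and TNFSF18 and TNFSF4 on chromosome 9 are also adjacent. The 4 members that were higher in more than 1 cell class at week 4 are TNFRSF12A on chromosome 3 (39166288 to 39168294, minus strand), TNFRSF1A on chromosome 5 (64319349 to 64331876, plus strand), TNFRSF1B on chromosome 6 and TNFSF13B on chromosome 11 (75599296 to 75633044, plus strand). The 250 bases before the RefSeq gene starts of TNFRSF12A, TNFRSF1A and TNFSF13B are shown as examples of members higher in more than 1 class, each 5′ to 3′ on the strand of the gene, with matches to any of 4 searched motifs in capitals.
TNFRSF12A (chr3:39168295-39168544, minus strand): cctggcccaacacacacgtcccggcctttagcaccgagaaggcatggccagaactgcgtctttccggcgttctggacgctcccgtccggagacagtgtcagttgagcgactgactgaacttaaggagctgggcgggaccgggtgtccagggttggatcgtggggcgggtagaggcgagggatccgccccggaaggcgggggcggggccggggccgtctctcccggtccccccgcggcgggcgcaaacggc
TNFRSF1A (chr5:64319099-64319348, plus strand): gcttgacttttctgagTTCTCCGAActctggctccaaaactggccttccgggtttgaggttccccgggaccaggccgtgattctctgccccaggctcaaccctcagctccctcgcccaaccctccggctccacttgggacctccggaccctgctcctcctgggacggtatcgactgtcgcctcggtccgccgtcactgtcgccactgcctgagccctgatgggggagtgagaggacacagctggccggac
TNFSF13B (chr11:75599046-75599295, plus strand): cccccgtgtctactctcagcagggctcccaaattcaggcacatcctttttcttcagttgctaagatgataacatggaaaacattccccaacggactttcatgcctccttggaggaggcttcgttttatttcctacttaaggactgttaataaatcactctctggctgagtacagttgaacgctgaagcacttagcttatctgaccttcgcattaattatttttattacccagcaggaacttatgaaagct
The motifs searched, on both strands, were a longer kappaB consensus and GGAATTTCC (kappaB), the core of an interferon-stimulated response element (ISRE) and TTCNNNGAA (GAS). The capitals in TNFRSF1A mark its GAS match, TTCTCCGAA, whose bases lie 234 to 226 before the gene start. Neither kappaB string was found in the 3 windows shown, and they occur in 0.0869% and 0.368% of 19556 promoter windows of this length. TNFRSF17 and TNFSF14 held the ISRE core (3.01% of all windows), and TNFRSF1A, TNFRSF4 and TNFSF8 held TTCNNNGAA (6.12%). A match describes these letters only.

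In vehicle retinas of week 4 the superfamily was spread over glial, vascular, neuronal and myeloid classes. Among classes with at least 20 nuclei in both retinas of a group, 9 of the 24 members had their highest mean level in myeloid nuclei, 3 in mural nuclei, 2 each in amacrine, cone, horizontal and pigment epithelium nuclei, and 1 each in RGC, Müller and astrocyte nuclei, while TNFRSF18 had no UMI. Several of these leading levels rest on few UMIs. In AAV retinas of week 4, 21 of 24 members had their highest level in an immune class. Myeloid nuclei led for 8 of them, T or NK nuclei for 6, dendritic nuclei for 4, plasma nuclei for 2 and B nuclei for 1. Among the classes ranked in AAV retinas, the 3 members led by a resident class were TNFRSF19 in cones, TNFRSF12A in astrocytes and TNFSF14 in horizontal cells. The 2 rankings covered unlike classes, 11 in vehicle and 13 in AAV retinas, so their counts cannot be set against each other. The vehicle ranking held no dendritic, T or NK, B or plasma nuclei. The AAV ranking held no mural or pigment epithelium nuclei, which had led 3 and 2 members in vehicle retinas. Endothelial nuclei were in neither.

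**Figure D1:**
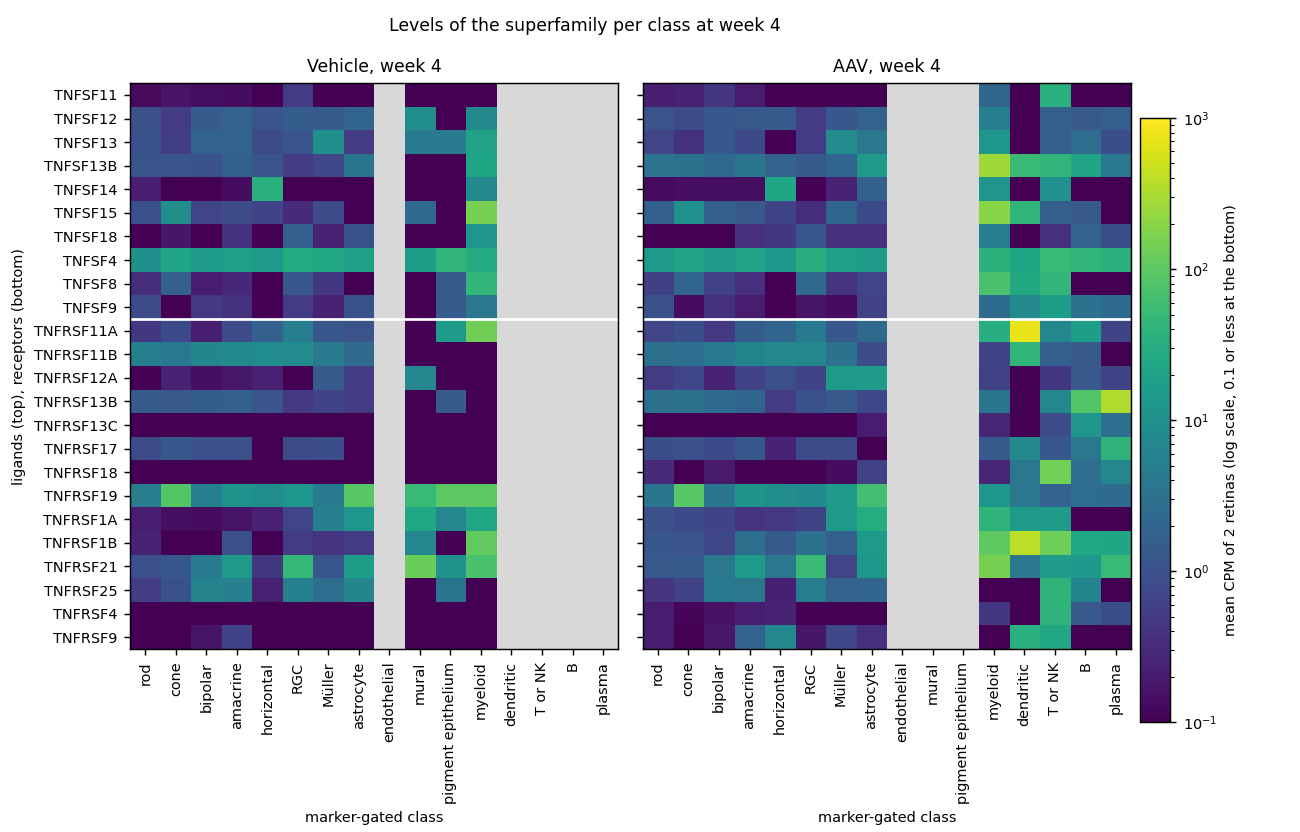
Heat map of the level of each member (rows) in each marker-gated class (columns), as mean CPM of the 2 vehicle (left) and the 2 AAV (right) retinas of week 4 on a logarithmic colour scale that ends at 0.1 or less. Grey marks classes with fewer than 20 nuclei in a retina. These are the endothelial column of both panels and the mural and pigment epithelium columns of the AAV retinas. They also include every dendritic, T or NK, B and plasma column of the vehicle retinas, where those classes held 0 nuclei.

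Resident neurons carried some members at steady levels. TNFRSF19 (TROY), a receptor known for its part in neural development, held 54.6% of its 26628 UMIs in cones, where it lay between 83.0 and 115 CPM in the 8 retinas. It was also read in astrocytes at 46.5 to 97.9 CPM. TNFRSF21 (death receptor 6), known for its part in the death of axons, lay between 39.9 and 58.2 CPM in retinal ganglion cells (RGCs). Neither differed in these classes at week 4 beyond the threshold, with log2 fold changes (AAV over vehicle) of 0.14 ± 0.11 (SE) for TNFRSF19 in cones and 0.25 ± 0.16 for TNFRSF21 in RGCs and adjusted p = 0.56 and 0.496 (edgeR quasi-likelihood test, Benjamini-Hochberg over all genes of the class). Other classes held both genes at higher mean levels. TNFRSF19 was at 157 CPM in pigment epithelium (7 retinas), and TNFRSF21 at 124 CPM in mural (7 retinas) and 82.2 CPM in myeloid nuclei (8 retinas). TNFSF4 (OX40 ligand), a costimulator known from dendritic cells, was read in all 9 classes tested, at 20.2 to 25.4 CPM in cones and 14.7 to 19.8 CPM in bipolar cells. In RGCs of week 4 it was at 35.5 and 28.9 CPM in AAV and 34.4 and 22.9 CPM in vehicle retinas.

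Horizontal cells held 66.7% of the 1033 UMIs of TNFSF14 (LIGHT), a ligand for the lymphotoxin-beta receptor. Its level in them was 27.9 and 37.9 CPM in the AAV eyes of week 2, 16.2 and 23.7 in the vehicle eyes of week 2, 45.0 and 24.4 in the vehicle retinas of week 4, and 44.8 CPM in AAV animal 7248. In AAV animal 7249 it was 0.98 CPM, from 2 UMIs in 227 nuclei (95% exact Poisson interval 0.119 to 3.54 CPM). The level in 7248 lay between those of the vehicle animals and that in 7249 below all other retinas, so the groups overlapped at week 4 (log2 fold change −0.61 ± 0.83, adjusted p = 0.756, edgeR). TNFRSF9 (CD137), a costimulatory receptor of activated T cells, was highest in animal 7249 in the same class. It had no UMI in horizontal cells of the 4 retinas of week 2 or of the vehicle retinas of week 4, 6 UMIs (2.66 CPM) in animal 7248 and 25 UMIs (12.3 CPM, interval 7.93 to 18.1) in animal 7249. Against the 3 UMIs that a count of 0 allows over both vehicle retinas, the measured level of TNFRSF9 in 7248 alone was 4.02-fold higher. Pooling both AAV retinas, of which 7249 held 25 of the 31 UMIs, gave 10.9-fold. These ratios leave out the counting error of the AAV UMIs, so they are not lower limits. The gene had too few counts there to enter the test. The summed T or NK marker list in horizontal nuclei was 231 and 240 CPM in the AAV and 256 and 215 CPM in the vehicle retinas of week 4, with 8, 10, 6 and 7 of the 12 genes found read. The summed bipolar marker list in these nuclei was 1654 and 1926 CPM against 570 and 1471 CPM, all 11 genes being read in each retina.

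At week 4, 2 AAV animals were compared with 2 vehicle animals in each class with at least 20 nuclei in every retina. This gave 98 tests of members in 9 classes, with 20 members tested in at least 1 class. TNFRSF13C, TNFRSF18, TNFRSF4 and TNFSF11 had too few counts in every class. A filter on low counts decides which members enter, so that a member read only in AAV retinas enters because it is high there. Of the 98 tests, 14 were higher and 2 lower in AAV retinas at an adjusted p under 0.05, which is 7 members in 5 classes. Over all genes tested in the same classes, 4.49% were higher and 3.57% lower. The median log2 fold change over the 98 tests was 0.17, and per class the median of all genes lay close to 0 (−0.01 to 0.02) except in myeloid nuclei, where it was 0.14. Receptors made up 10 of 59 tests called higher and both called lower, and ligands 4 of 39 called higher. Some of the 14 higher calls were lost without any single one of the 4 retinas, as given by class below, and most without vehicle animal 7250 or 7251. Without AAV animal 7248 or 7249 other tests became called, so a count of calls does not show how many of the 14 held.

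**Figure D2:**
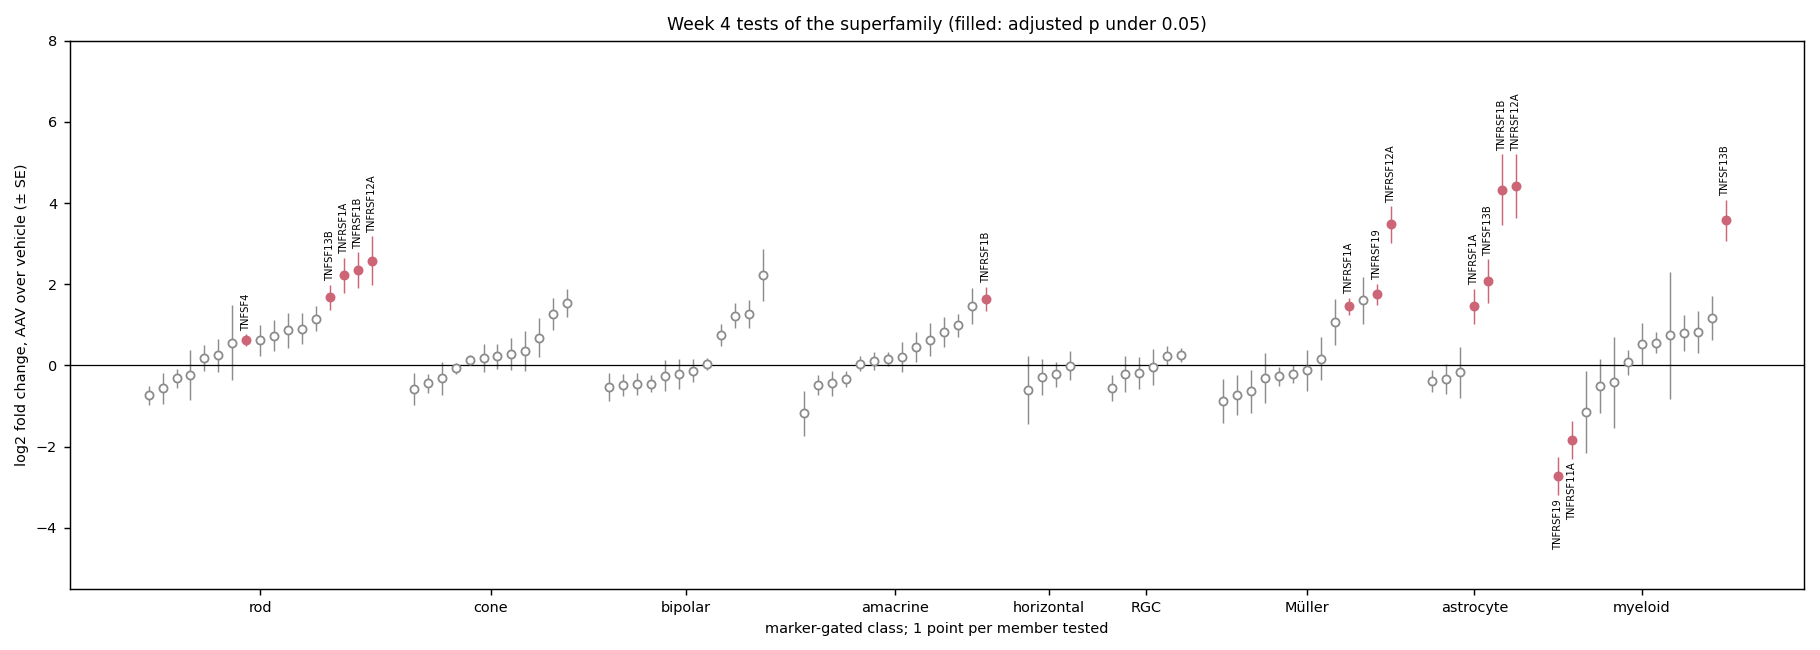
Log2 fold change (AAV over vehicle, week 4) ± SE of each member tested in each of the 9 classes, from edgeR's quasi-likelihood test on UMI sums of 2 AAV and 2 vehicle retinas. Filled red points, named, passed an adjusted p of 0.05 (14 higher, 2 lower), and open grey points did not.

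Müller cells, the radial glia of the retina, gave 3 receptors higher of 13 members tested, where 11.6% of all genes were higher and 11.7% lower. TNFRSF12A (Fn14), the receptor for TWEAK and known to rise in injured tissue, was at 21.7 and 8.71 CPM in AAV animals 7248 and 7249 against 1.21 and 1.65 in vehicle animals 7250 and 7251. Its log2 fold change was 3.47 ± 0.45 (SE; adjusted p = 0.00167, edgeR). At week 2 it was 4.05 and 1.52 CPM in the eyes of the AAV animal and 0.358 and 0.648 in those of the vehicle animal, so that all 4 AAV retinas lay above all vehicle retinas of their week. TNFRSF19 was at 17.4 and 13.1 CPM against 5.49 and 3.72 (log2 1.75 ± 0.26, adjusted p = 0.00291). At week 2 both AAV eyes lay above both vehicle eyes by less than 2-fold, at 6.70 and 4.90 CPM against 4.65 and 3.89. TNFRSF1A (TNF receptor 1), the receptor through which soluble TNF signals in most tissues, was at 16.0 and 13.3 CPM against 5.17 and 5.62 (log2 1.46 ± 0.21, adjusted p = 0.00263), and at 7.12 and 8.0 against 5.30 and 4.10 at week 2.

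Beside these values, the Müller class itself differed between groups. Müller nuclei numbered 1724 and 677 in the AAV retinas of week 4 against 5191 and 5518. On average they also held more UMIs each in both AAV retinas than in either vehicle retina. The summed level of the Müller marker list was 2853 and 2842 CPM in AAV against 4495 and 4439 CPM in vehicle retinas, with 8 of 8 genes found read in each. The summed astrocyte marker list was 414 and 291 CPM against 99.6 and 168 CPM, with 6 and 3 of the 6 genes found read in the AAV and 5 in each vehicle retina. PAX2, a defining astrocyte marker, had no UMI in Müller nuclei of animal 7249. The summed myeloid list in Müller nuclei was 36.0 and 41.6 CPM against 33.4 and 30.2 CPM. TNFRSF12A had 0.536 and 0.694 CPM in myeloid nuclei of the AAV retinas, below its Müller level in both animals. The part of the astrocyte markers in the Müller results was not tested. Without vehicle animal 7250, TNFRSF12A (log2 3.25) and TNFRSF1A (log2 1.38) did not pass the threshold in Müller cells, and TNFRSF19 passed in every alternative run. Without AAV animal 7248 the value of TNFRSF12A was log2 2.62.

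Astrocytes, gated by PAX2, GFAP and other markers, gave 4 of 7 members higher and 0 lower, against 6.76% and 5.99% of all genes. TNFRSF12A was at 14.9 and 16.7 CPM in AAV animals and at 0 and 1.04 CPM in vehicle animals, the latter from 1 UMI. The ratio of summed levels was 22.7 with an exact counting interval of 3.92 to 910, and the fitted log2 fold change was 4.41 ± 0.79 (adjusted p = 0.00445, edgeR). TNFRSF1B (TNF receptor 2), which binds mainly membrane-bound TNF and is known from leukocytes and glia, was at 18.1 and 10.4 CPM against 0 and 1.04, again from 1 vehicle UMI. Its ratio was 22.3 (3.85 to 895), with log2 4.33 ± 0.87 and adjusted p = 0.00797. TNFSF13B (BAFF), the survival factor of B cells that myeloid cells and astrocytes are known to make, was at 13.7 and 14.6 CPM against 4.03 and 3.12 CPM (log2 2.07 ± 0.54, adjusted p = 0.0299). TNFRSF1A was at 27.7 and 31.9 CPM against 18.1 and 7.27 (log2 1.46 ± 0.43, adjusted p = 0.0476). In each of the 4, both AAV retinas lay above both vehicle retinas of week 4, which adds no support to calls made on these same retinas.

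At week 2 the astrocyte class held only 38 to 180 nuclei a retina. There TNFRSF12A had 2 UMIs and TNFSF13B had 2 UMIs over the 4 retinas, all in vehicle eyes, and TNFRSF1B had 4. The summed myeloid marker list in astrocyte nuclei was 28.5 and 22.9 CPM in the AAV and 12.1 and 13.5 CPM in the vehicle retinas of week 4, with 11, 10, 2 and 4 of its 13 genes read. That AAV level was 0.573% and 0.556% of the level of the same list in myeloid nuclei, while TNFRSF1B in astrocytes stood at 15.8% and 11.9% and TNFSF13B at 4.89% and 5.83% of their myeloid levels. TNFRSF12A was at a higher level in astrocytes than in myeloid nuclei in both animals. The T or NK list in astrocyte nuclei was 13.3 and 13.9 against 4.03 and 6.23 CPM. At week 4 the astrocyte class held more UMIs in both AAV retinas than in either vehicle retina. Over all retinas 521 of its 1207 nuclei passed the stricter gate. The paper states that GFAP, a gate marker here, is also expressed by Müller glia, and Müller markers in this class are not given. The part of immune RNA and of a changed mix of nuclei in these calls was not tested. The call of TNFSF13B was lost without any single one of the 4 retinas (log2 1.88 to 2.22). That of TNFRSF1B was lost without 7248, 7250 or 7251 (log2 3.80, 3.81 and, with no vehicle UMI left and so no measure of size, 7.46), and that of TNFRSF1A without 7249 or 7251 (log2 1.37 and 0.80), and without 7250 TNFRSF1A was at log2 2.09. TNFRSF12A stayed past the threshold without any single retina, at log2 3.89 to 7.55, the highest being without 7251, whose 1 UMI was the only vehicle UMI, so that this fitted value is no measure of size. With DESeq2 none of the 4 astrocyte calls passed, and that of TNFRSF1A was also lost with the stricter gate (log2 1.78) and that of TNFSF13B with all 6 animals in 1 fit (log2 2.08). With the stricter gate TNFRSF12A, TNFRSF1B and TNFSF13B had too few counts in astrocytes to be tested. Without the mitochondrial filter TNFRSF12A was at log2 3.11.

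**Figure D3:**
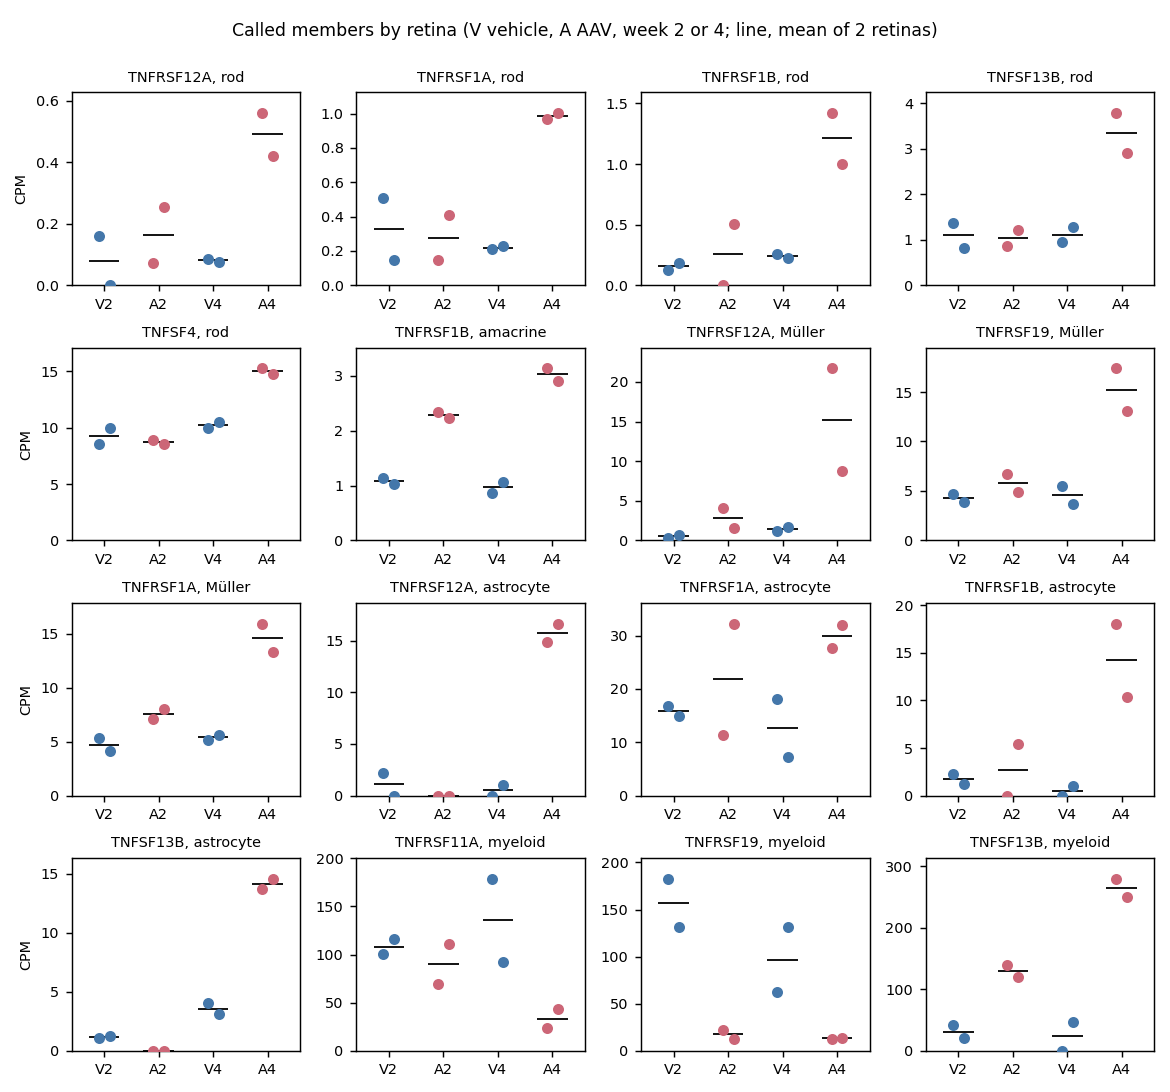
Level in CPM of the 16 member and class combinations called at week 4, 1 panel each, with 1 point per retina in the order vehicle and AAV at week 2 (V2, A2, both eyes of 1 animal each) and vehicle and AAV at week 4 (V4, A4, 2 animals each). Both AAV retinas of week 4 lay on 1 side of both vehicle retinas of week 4 in each panel. The panels were chosen by the test on these same retinas, so that is no added support.

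Rods gave 5 of 17 members higher and 0 lower, against 6.16% and 5.21% of all genes, at low levels. TNFSF13B was at 3.79 and 2.91 CPM against 0.941 and 1.28 (log2 1.68 ± 0.31, adjusted p = 0.0202, edgeR). TNFRSF1B was at 1.42 and 1.00 CPM against 0.257 and 0.226 (log2 2.34 ± 0.44, adjusted p = 0.0218). TNFRSF1A was at 0.968 and 1.00 CPM against 0.214 and 0.226 (log2 2.22 ± 0.43, adjusted p = 0.0231). TNFRSF12A was at 0.56 and 0.421 CPM against 0.0855 and 0.0752 (52 against 3 UMIs, ratio 5.87 with a counting interval of 1.90 to 29.4, fitted log2 2.58 ± 0.60, adjusted p = 0.0395). TNFSF4 had the smallest fitted change of the 5, at 15.3 and 14.8 CPM against 9.96 and 10.5 (log2 0.62 ± 0.15, adjusted p = 0.0419). At week 2 the eyes of the AAV and vehicle animals overlapped for all 5, with TNFSF4 at 8.93 and 8.59 against 8.60 and 9.98 CPM.

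Markers of immune cells moved with these genes in rod nuclei. The summed myeloid list was 35.3 and 26.8 CPM in AAV against 23.0 and 20.5 CPM in vehicle retinas of week 4 (13, 13, 12 and 12 of 13 genes read). The T or NK list in rods was 30.5 and 20.3 against 6.88 and 7.14 CPM, the plasma list 62.4 and 82.4 against 22.9 and 23.4 CPM, and the B list 19.1 and 11 against 2.52 and 5.79 CPM. MS4A1, a defining B cell marker, had no UMI in rods of either vehicle retina. In rods of the AAV retinas the myeloid list stood at 0.708% and 0.651% of its level in myeloid nuclei. TNFSF13B stood at 1.35% and 1.16%, TNFRSF1B at 1.24% and 1.15%, TNFRSF1A at 2.54% and 2.47% and TNFSF4 at 41.9% and 38.7% of their own myeloid levels. TNFRSF12A had only 2 UMIs in myeloid nuclei of each animal, so no such share is given. The part of RNA from immune cells in the rod values was not tested. Each of the 5 rod calls was lost without at least 1 retina. TNFSF13B was lost only without 7250 (log2 1.45), TNFRSF1B without 7248, 7250 or 7251 (log2 2.10, 2.47 and 2.27), and TNFRSF1A and TNFRSF12A without 7249, 7250 or 7251 (log2 2.17 to 2.24 and 2.52 to 2.75). TNFSF4 was lost without any single one of the 4 (log2 0.58 to 0.64) and with the stricter gate (log2 0.56). TNFRSF1A and TNFRSF12A were also lost with DESeq2 (log2 2.22 and 2.64), and TNFRSF12A with all 6 animals in 1 fit (log2 2.59). Without 7248 TNFRSF12A had too few counts in rods to be tested.

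In amacrine cells 1 of 14 members was higher and 0 lower, against 2.02% and 0.876% of all genes. TNFRSF1B was at 3.14 and 2.91 CPM in AAV animals of week 4 against 0.872 and 1.06 in vehicle animals (log2 1.64 ± 0.30, adjusted p = 0.0257, edgeR). It was already at 2.35 and 2.23 CPM in the AAV eyes of week 2 against 1.13 and 1.03, so that no AAV retina overlapped a vehicle retina at either week. The summed myeloid list in amacrine nuclei moved too, at 48.6 and 43.1 CPM against 24.8 and 20.0 at week 4 and at 44.5 and 51.9 against 22.9 and 19.2 at week 2. TNFRSF1B stood at 2.73% and 3.33% of its myeloid level in the AAV retinas of week 4 and the list at 0.977% and 1.05%. The call was lost without 7250 (log2 1.51) or 7251 (log2 1.79) and with a stricter gate (log2 1.14) or DESeq2 (log2 1.65), and the part of myeloid RNA in it was not tested.

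Cones, bipolar cells, horizontal cells and RGCs had 12, 12, 4 and 6 members tested and 0 called, with 2, 4, 0 and 0 at an unadjusted p under 0.05. At the adjusted threshold 1.44%, 1.82%, 3.27% and 2.3% of all genes of these classes were higher and 0.98%, 1.19%, 1.71% and 1% lower. No share of all genes at an unadjusted p is given, so the unadjusted counts cannot be set against these shares. TNFSF13B in cones was at 3.96 and 2.41 CPM against 0.961 and 1.28 (log2 1.54 ± 0.35, adjusted p = 0.0864, edgeR). In bipolar cells TNFRSF1B had 28 UMIs in the AAV and 0 in the vehicle retinas of week 4, and had too few counts to be tested. The measured level was 8.19-fold higher against the 3 UMIs that a count of 0 allows, and 4.92-fold from 7249 alone. Counting error of the AAV UMIs is left out of both ratios. Its summed level there was 0.689 CPM in AAV retinas, against 115 and 87.5 CPM in myeloid nuclei of 7248 and 7249. The part of myeloid RNA in these bipolar and cone values was not tested.

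In myeloid nuclei 1 of 13 members was higher and 2 were lower, against 5.93% and 3.67% of all genes. TNFSF13B was at 280 and 250 CPM in AAV animals 7248 and 7249 (1043 and 721 UMIs) against 0 and 46.3 CPM in vehicle animals 7250 and 7251 (0 and 6 UMIs). Its log2 fold change was 3.58 ± 0.51 (adjusted p = 0.000982, edgeR). It passed in every alternative run, but its size rests on 6 vehicle UMIs. Without 7250 it was log2 2.71, and without 7251 no vehicle UMI was left and the fitted value of 12.2 is no measure of size. At week 2 it was at 139 and 119 CPM in the eyes of the AAV animal against 41.3 and 21.1 in those of the vehicle animal. TNFRSF11A (RANK), the receptor that drives osteoclast formation and acts in dendritic cells, was at 23.3 and 43.4 CPM against 179 and 92.7 (log2 −1.85 ± 0.46, adjusted p = 0.0282). At week 2 its levels overlapped, at 69.5 and 110.9 CPM in the eyes of the AAV animal and 100.2 and 115.9 CPM in those of the vehicle animal, and the difference between weeks did not pass (log2 −1.57 ± 0.61, adjusted p = 0.215, edgeR). TNFRSF19 was at 12.6 and 13.9 CPM against 62.6 and 131 (log2 −2.73 ± 0.47, adjusted p = 0.00361), and at 22.2 and 12.3 against 183 and 132 CPM at week 2. The vehicle values of TNFRSF19 at week 4 come from 7 and 17 UMIs, and those of TNFRSF11A from 20 and 12.

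Markers within the myeloid class also differed between groups. P2RY12, a marker of resident microglia, was at 516 and 728 CPM in AAV against 2038 and 1815 CPM in vehicle retinas of week 4. CD163, a scavenger receptor of macrophages, was at 2233 and 1371 against 0 and 7.72 CPM, and MRC1 at 368 and 313 against 0 and 0. The summed cone list, TNFRSF19 being high in cones, was 83.4 and 57.3 CPM in myeloid nuclei of AAV against 116 and 170 CPM in vehicle retinas, with 8, 8, 4 and 7 of its 8 genes read. The summed B list in myeloid nuclei was 1844 and 2033 CPM in AAV against 44.7 and 30.9 CPM in vehicle retinas, with 8, 7, 1 and 1 of its 8 genes read and MS4A1 at 0 in 7249 and in both vehicle retinas. The T or NK list was 167 and 269 against 44.7 and 69.5 CPM, with 11, 10, 2 and 4 of 12 genes read. Myeloid nuclei of the AAV retinas were divided, after their values were seen, into those with a P2RY12 UMI (741 and 603 nuclei, median 2748 and 3481 UMIs) and those without (642 and 271, median 2031.5 and 2680). CD163 was at 2006 and 1354 CPM in nuclei with P2RY12 and at 2571 and 1419 CPM in those without. MRC1 was at 328.5 and 287 against 428 and 385 CPM, so this division does not separate microglia from macrophages. TNFSF13B was at 276 and 255 CPM in nuclei with P2RY12 and at 285 and 236 CPM in those without. TNFRSF19 was at 12.1 and 10.9 against 13.4 and 22.2 CPM, and TNFRSF11A at 28.2 and 45.4 against 16.0 and 37.8 CPM. The vehicle nuclei were not divided, and the part of the mix of myeloid cells and of cone, B or T cell RNA in the 3 calls was not tested. The call of TNFRSF11A was lost without 7250 (log2 −1.29) or 7251 (log2 −2.21), with the stricter gate (log2 −1.81) and with no mitochondrial filter (log2 −1.78), and without 7249 the value was log2 −2.46. That of TNFRSF19 was lost without 7248 (log2 −2.75), 7249 (log2 −2.89) or 7251 (log2 −2.01).

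Other members were read in myeloid nuclei without passing the test. TNFSF15 (TL1A), a ligand that costimulates T cells and acts on endothelium, was at 213 and 179 CPM in AAV against 179 and 124 in vehicle retinas of week 4 (log2 0.55 ± 0.26, adjusted p = 0.227, edgeR). TNFRSF1B was at 115 and 87.5 against 125 and 92.7 CPM (log2 0.07 ± 0.32, adjusted p = 0.926), so that per myeloid UMI the groups overlapped. TNFSF8 (CD30 ligand) was at 62.2 and 78.4 against 26.8 and 61.8 CPM, and TNFRSF21 at 101 and 197 against 26.8 and 116 CPM. TNFSF13 (APRIL), a ligand of plasma cell receptors, was at 13.4 and 12.5 against 17.9 and 23.2 CPM.

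T or NK, B, plasma and dendritic nuclei were numerous in the AAV retinas of week 4 and had no counterpart to be compared with, so their levels are descriptions of 2 animals. TNFRSF18 (GITR), a costimulatory receptor of regulatory and activated T cells, was at 183 CPM (161 to 208, exact Poisson interval) in T or NK nuclei of animal 7248 and at 100.3 CPM (82.6 to 121) in those of animal 7249. These nuclei held 72.4% of its 500 UMIs. TNFRSF4 (OX40) was at 44.9 and 33.7 CPM, TNFRSF25 (death receptor 3) at 44.2 and 36.4 CPM and TNFRSF9 at 25.8 and 22.2 CPM in the same nuclei. Ligands were read there too, with TNFSF4 at 50.8 and 47.9 CPM, TNFSF8 at 53.8 and 36.4 CPM, TNFSF11 (RANK ligand) at 50.8 and 22.2 CPM and TNFSF9 at 14.7 and 19.5 CPM. T or NK nuclei were divided after their values were seen by whether they held a UMI of FOXP3, the factor of regulatory T cells. Nuclei with FOXP3 (34 and 55) had TNFRSF18 at 413 and 183 CPM against 173 and 92.9 CPM in those without (901 and 694). TNFRSF1B was at 413 and 451 against 100.2 and 120 CPM, and TNFRSF4 at 165 and 53.7 against 39.3 and 31.9 CPM. TNFSF4 had no UMI in nuclei with FOXP3 of either animal and 53.2 and 52.2 CPM in those without. In nuclei with FOXP3 the TNFRSF18 values come from 25 and 17 UMIs and those of TNFRSF4 from 10 and 5. In so few nuclei a count of 0 does not show that TNFSF4 was absent. Median UMIs were 1341.5 and 1205 with and 1092 and 1076.5 without a FOXP3 UMI.

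Dendritic nuclei (62 and 51) carried TNFRSF11A at 916 and 593 CPM (intervals 760 to 1095 and 469 to 740), above its level in any other class of these retinas, and TNFRSF1B at 432 and 357 CPM. The receptors of BAFF and APRIL followed the B lineage. TNFRSF13B (TACI) was at 286 and 384 CPM in plasma and at 82.1 and 82.9 CPM in B nuclei. TNFRSF17 (BCMA), the receptor of mature plasma cells, was at 45.8 and 33.1 CPM in plasma nuclei. TNFRSF13C (BAFF receptor) was at 13.2 and 11.3 CPM in B nuclei, from 5 and 3 UMIs. In mural nuclei TNFRSF11B (osteoprotegerin), the soluble decoy of RANK ligand, had 3 UMIs in 15 mural nuclei of 7248 and 27 UMIs in 26 of 7249 (48.1 and 232 CPM) and 0 in the mural nuclei of the other 6 retinas. The UMIs of 7249 came from 3 nuclei and those of 7248 from 1, and the 15 nuclei of 7248 are below the minimum of 20, so no fold is given. Intervals cover counting error only.

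Summed over all kept nuclei of a retina, 13 of 24 members were higher in AAV animals of week 4 and 0 lower, where 6.7% of all genes were higher and 4.44% lower. At an unadjusted p under 0.05, for which no share of all genes is given, the count was 16 in both directions. It included TNFRSF11B (log2 −0.56) and TNFRSF25 (log2 −0.80), and DESeq2 called 1 lower. The 13 comprised 9 of 14 receptors and 4 of 10 ligands. The median log2 fold change of all 24 members was 1.40 against −0.01 over all genes. TNFRSF18 had 500 UMIs in AAV and 0 in the other 6 retinas. Its measured level was 125-fold that of the 3 UMIs that a count of 0 allows over both vehicle retinas of week 4. From 7249 alone it was 74.0-fold, both ratios leaving out the counting error of the AAV UMIs. TNFRSF4 had 173 against 1 UMI (ratio 130, counting interval 23.0 to 5157) and TNFRSF13C 36 against 3 UMIs (ratio 9.01, 2.85 to 45.7). TNFRSF1B was at 7.43 and 5.03 CPM against 0.462 and 0.636 (log2 3.50 ± 0.29, adjusted p = 0.00161, edgeR), and TNFSF13B at 12.1 and 8.52 CPM against 1.05 and 1.41 (log2 3.07 ± 0.25, adjusted p = 0.0016). TNFSF8 was at 3.04 and 2.94 against 0.454 and 0.797 CPM, TNFRSF13B at 4.48 and 4.98 against 1.32 and 1.26 CPM and TNFSF15 at 8.80 and 6.69 against 2.02 and 2.96 CPM. TNFRSF12A, TNFRSF1A, TNFRSF9, TNFRSF11A and TNFSF11 made up the rest, with log2 fold changes of 2.42, 1.55, 2.05, 1.26 and 2.20 and adjusted p of 0.034, 0.0242, 0.0144, 0.0158 and 0.0145 (edgeR). Both AAV retinas lay above both vehicle retinas of week 4 for all 13. As the 13 were chosen by the test on these same retinas, that adds no support.

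**Figure D4:**
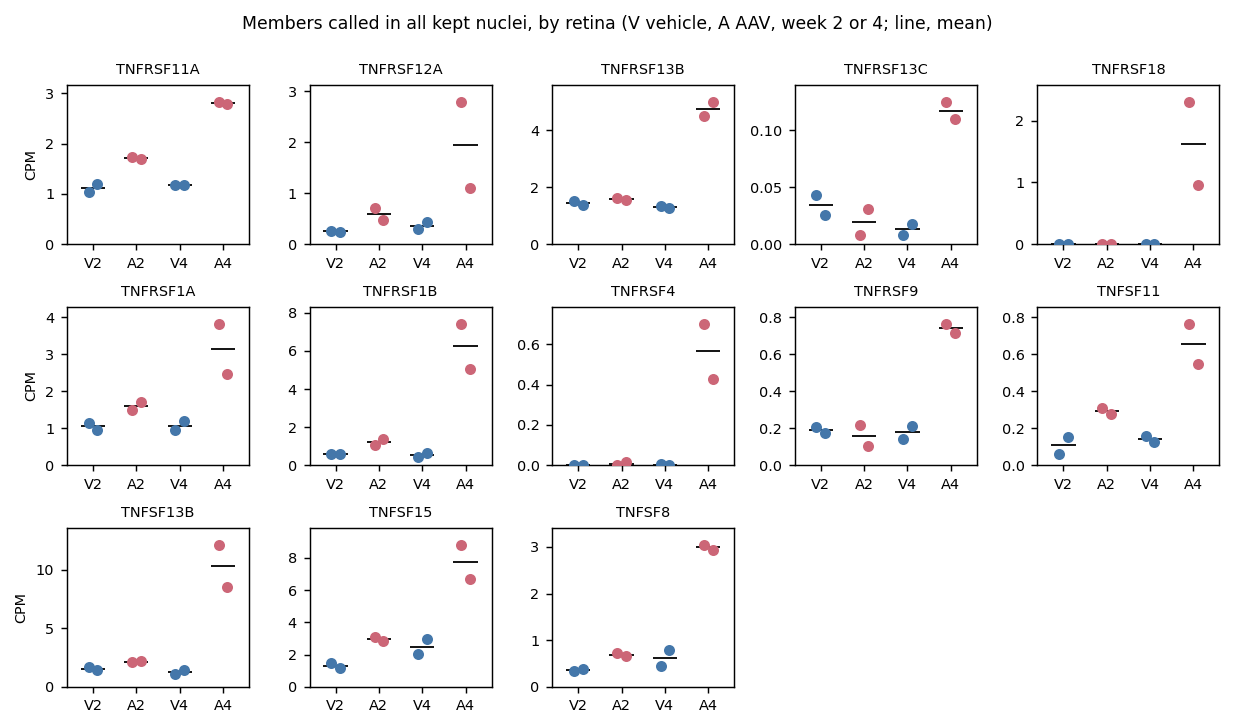
Level in CPM over all kept nuclei of each retina for the 13 members called higher at week 4, with points as vehicle and AAV at week 2 (V2, A2) and at week 4 (V4, A4), and lines at the mean of each group. TNFRSF18 lay at 0 in all retinas but the 2 AAV retinas of week 4.

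The share of these sums that lay in immune nuclei differed between members. In AAV retinas of week 4 the 5 immune classes held 75% of the UMIs of TNFRSF18, 63.0% of TNFSF8, 60.1% of TNFRSF1B, 60.1% of TNFRSF4, 59.9% of TNFSF13B, 55.8% of TNFSF15, 54.0% of TNFSF11 and 51.0% of TNFRSF11A. The share was 44.4% for TNFRSF13C, 37.3% for TNFRSF13B, 30.3% for TNFRSF9 and 1.18% for TNFRSF12A. For TNFRSF1A it was 31.2%, with 19.9% in Müller and 11.9% in astrocyte nuclei. Of the 13 members, 5 were also called in at least 1 gated class, TNFRSF11A there in the other direction, lower in myeloid nuclei. TNFRSF13B, TNFRSF18, TNFRSF1B, TNFRSF4, TNFSF13B and TNFSF8 kept their call in all 10 alternatives. Without 7250 the number of higher calls fell to 6 and without 7251 to 8. TNFRSF11A, TNFRSF12A, TNFRSF1A and TNFSF11 were lost without either (log2 1.25 and 1.27, 2.17 and 2.71, 1.41 and 1.70, and 2.39 and 2.04), and TNFRSF9 and TNFSF15 only without 7250 (log2 1.79 and 1.39). TNFRSF13C was lost without any single retina (log2 2.66 to 3.67) and with DESeq2, and TNFRSF12A was at log2 1.64 without AAV animal 7248. The fitted value of TNFRSF4, from 1 vehicle UMI, was 9.30 without 7250, which leaves no vehicle UMI, and 5.93 without 7251. Members not called over all nuclei included TNFSF4 at 19.9 and 17.8 against 17.4 and 17.8 CPM, TNFSF12 (TWEAK) at 1.46 and 1.10 against 1.18 and 1.38 CPM, and TNFRSF25 at 2.30 and 2.03 against 3.10 and 4.43 CPM. TNFRSF17, TNFSF9, TNFSF13, TNFSF14, TNFSF18, TNFRSF11B, TNFRSF19 and TNFRSF21 were the others not called.

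At week 2 both eyes of 1 AAV animal faced both eyes of 1 vehicle animal, so no test between animals was possible and values are given as descriptions. A member was counted as past 2-fold when the summed levels differed by at least 2-fold, both AAV eyes lay on 1 side of both vehicle eyes and the 4 retinas held at least 20 UMIs. Of 119 member and class combinations with enough UMIs, 15 were higher and 4 lower, while 4.9% of all genes were higher and 2.65% lower. In myeloid nuclei these shares of all genes were larger, 11.3% and 6.66%, and in Müller cells 6.31% and 3.77%. In Müller cells TNFRSF1B was at 1.31 CPM over both AAV eyes against 0.13 (39 against 4 UMIs, 10.0-fold), TNFRSF12A was 5.21-fold higher (76 against 15 UMIs) and TNFSF15 2.23-fold (26 against 12 UMIs). In myeloid nuclei TNFSF13B was 4.28-fold, TNFSF18 (GITR ligand) 3.28-fold, TNFSF4 2.90-fold and TNFRSF21 2.44-fold higher, from 6 to 11 vehicle UMIs, and TNFRSF19 was lower, at a ratio of 0.117. TNFSF18 in myeloid nuclei was at 61.2 and 45.2 CPM in the AAV eyes against 17.7 and 15.8. At week 4 it was at 2.95 and 7.29 against 8.94 and 15.4 CPM, the vehicle values coming from 1 and 2 UMIs. That week 4 difference was not called (adjusted p = 0.559, edgeR). The difference between weeks was not called either (log2 −2.90 ± 1.55, adjusted p = 0.432, edgeR).

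In neurons of week 2 the higher members were TNFRSF1B (2.11-fold) and TNFSF11 (3.59-fold) in amacrine cells, TNFSF11 (3.06-fold) in bipolar cells, TNFSF8 (2.30-fold) in cones, and TNFSF15 (2.48-fold) and TNFSF8 (2.09-fold) in rods. TNFSF11 had 7 and 5 UMIs in the vehicle eyes of bipolar and amacrine cells. The pigment epithelium gave TNFRSF21 (19.2-fold, 55 against 3 UMIs) and TNFRSF1A (2.54-fold). The lower values were TNFRSF25 (ratio 0.303) and TNFRSF21 (0.191) in astrocytes, TNFRSF21 (0.471) in mural nuclei and TNFRSF19 in myeloid nuclei, as above.

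The difference between the AAV effects of the weeks was tested with the eyes of a week 2 animal summed. Of 117 member tests in 9 classes 0 were called in either direction with edgeR, and 13 had an unadjusted p under 0.05. At the adjusted threshold 0.353% of all genes were called higher and 0.501% lower. Over all kept nuclei 0 of 24 were called, and 7 had an unadjusted p under 0.05. At the adjusted threshold 0.568% of all genes were higher there and 0.118% lower. No share of all genes at an unadjusted p is given. The lowest adjusted p was that of TNFSF13B over all kept nuclei, with a log2 difference of 2.66 ± 0.41 (adjusted p = 0.0654). For TNFRSF12A in Müller cells the log2 difference was 1.14 ± 0.84 (adjusted p = 0.495). With 1 animal per arm at week 2 and 2 at week 4 the spread comes from the week 4 animals alone. On counts simulated with known changes over all kept nuclei, this test called 0 of 99 genes changed 2-fold and 33 of 99 changed 4-fold. In Müller cells it called 5 of 98 and 54 of 99. The 0 calls therefore do not show that the weeks were alike.

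Ligands and receptors were then paired by known binding. Of 22 pairs listed, 17 had both genes in the files, and in 5 both were called higher over all kept nuclei at week 4. The share of 6.7% called higher there is of single genes, and no such share was formed for pairs. As 13 of the 24 members were called higher in the same sums, the count of pairs largely restates that result. The list held only pairs with at least 1 member, so it leaves out FASLG and FAS, which were both higher there as well (log2 5.70 and 3.68). In AAV retinas of week 4 TNFSF13B was highest in myeloid nuclei (265 ± 20.7 CPM, SD, n = 2) and its receptors TNFRSF13B in plasma (335 ± 69.2 CPM) and TNFRSF13C in B nuclei (12.3 ± 1.37 CPM), whereas in vehicle retinas TNFRSF13B was at most 1.70 CPM in any class, in amacrine cells. TNFSF11 was highest in T or NK nuclei (36.5 ± 20.3 CPM) and its receptor TNFRSF11A in dendritic nuclei (754 ± 229 CPM). TNF, named without the prefix, was highest in T or NK nuclei (17.5 ± 3.40 CPM), and its receptors TNFRSF1A in myeloid (39.3 ± 1.80 CPM) and TNFRSF1B in dendritic nuclei (394 ± 52.6 CPM). These 3 ligands and their receptors make up the 5 pairs. The ligand of TNFRSF12A, TNFSF12, was at 5.39 ± 2.23 CPM in myeloid nuclei and 1.79 ± 1.40 CPM in astrocytes, and was not called. TNFSF15 was highest in myeloid nuclei (196 ± 24.5 CPM) and its receptor TNFRSF25 in T or NK nuclei (40.3 ± 5.53 CPM). TNFSF18 was highest in myeloid nuclei (5.12 ± 3.07 CPM) and its receptor TNFRSF18 in T or NK nuclei (142 ± 58.8 CPM). TNFRSF19 and TNFRSF21 have no TNFSF partner in the list.

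Superfamily genes named without the prefix were listed as 15 and found as 14, EDA2R being the one not matched by symbol. Over the classes 7 of 56 tests were higher and 4 lower, with a median log2 fold change of 0.02, where 4.49% of all genes were higher and 3.57% lower. FAS, the death receptor of FAS ligand, had the 3 largest changes among the tests that passed the threshold. In Müller cells it was at 28.5 and 31.3 CPM against 0.646 and 0.496 (log2 5.67 ± 0.25, adjusted p = 9.92e-06, edgeR), and at 6.79 and 7.16 CPM against 0.834 and 0.648 at week 2. In rods (log2 4.98 ± 0.80) and astrocytes (log2 4.77 ± 0.87) it was higher as well, and in myeloid nuclei, with 45 and 28 UMIs against 0 and 0, it did not pass (adjusted p = 0.167). The vehicle values in rods and astrocytes come from 1 UMI each, and the call was lost when the retina that held it was left out, 7250 for rods and 7251 for astrocytes. FASLG itself was read at 20.6 and 39.0 CPM in T or NK nuclei. The 3 smallest that passed were CD27 and EDA in horizontal cells and NGFR in Müller cells. CD27 was at 2.22 and 2.45 CPM against 16.3 and 19.8 (log2 −2.98 ± 0.41), EDA at 178 and 112 CPM against 602 and 516 (log2 −1.99 ± 0.22), and NGFR at 13.0 and 15.5 CPM against 53.6 and 27.5 (log2 −1.53 ± 0.31). The call of NGFR was lost without 7248 (log2 −1.36) or 7250 (−0.99). Over all kept nuclei CD40LG (log2 5.87), FASLG (5.70) and TNF (4.22) had the largest changes among those that passed and EDA (−1.55) was lower. CD40LG and FASLG had 1 and 2 vehicle UMIs, all in 7250, and without 7251 they were at log2 5.05 and 4.81. TNF had 4 and was at log2 3.62 without 7250 and 5.20 without 7251.

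Of 37 genes that act below the receptors, 48 of 306 class tests were higher and 1 was lower, with a median log2 fold change of 0.21, where 4.49% of all genes were higher and 3.57% lower. Müller cells had 18 of 36 higher and 0 lower, astrocytes 9 of 33 and 1, and myeloid nuclei 8 of 36 and 0. Among all genes 11.6% were higher and 11.7% lower in Müller cells, 6.76% and 5.99% in astrocytes, and 5.93% and 3.67% in myeloid nuclei. Marker lists read within these classes also differed between groups, as given above, and their part in these calls was not tested. TNFAIP3 (A20), the deubiquitinase that restrains NF-kB, was higher in Müller cells (log2 5.49 ± 0.51, adjusted p = 0.000365, edgeR) and astrocytes (3.98 ± 0.80), and CASP10, a caspase recruited by death receptors, in astrocytes (4.18 ± 0.87). These are the 3 largest that passed in gated classes, not all the classes called. In rods, for example, TNFAIP3 and CASP10 were higher as well (log2 2.16 and 2.14). CFLAR, which blocks caspase-8 at the receptor, was higher in rods, bipolar, amacrine, horizontal and Müller cells, RGCs and astrocytes, with log2 fold changes of 1.14 to 3.39. It is named outside the rule, after its values were seen. TRAF4 in astrocytes was the 1 lower (−1.80 ± 0.31). The astrocyte call of CASP10 was lost with DESeq2 (4.29) and without 7251 (2.79), and that of TNFAIP3 without 7248 (3.15) or 7251 (3.50). With the stricter gate FAS, CASP10 and TNFAIP3 had too few counts in astrocytes to be tested. CFLAR in horizontal cells was at 4.03 without 7250. The largest changes over all kept nuclei, among those that passed, were those of CASP10 (3.31), TNFAIP3 (2.86) and RIPK3 (2.67), a kinase of necroptosis, where 13 of 37 were higher and 0 lower, against 6.7% and 4.44% of all genes. The call of RIPK3 was lost without 7250 (2.63) or 7251 (2.71), and CASP10 was at 4.20 without 7250.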

How the data were processed

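Single-nucleus RNA was measured in 8 pig retinas. The authors deposited UMI counts per gene and barcode for 4 lanes of each retina, made with Cell Ranger 8.0.0 on Sscrofa11.1 with EGFP added, per the labels, as filtered barcodes. Lanes were joined here by retina. Barcodes above the intact line of a mixture model on mitochondrial share, with a posterior probability of at least 0.75 of being compromised, were removed, and the rest were gated by marker genes and then by the profile of the seeded nuclei. Nuclei whose markers and profile named different classes stayed ungated, and no doublet caller was run. UMIs were summed per retina and class. At week 4 edgeR 4.0.16 (quasi-likelihood test, TMM, low-count filter) compared 2 animals with 2 over all genes of a class with at least 20 nuclei in every retina, with Benjamini-Hochberg adjustment at 0.05. Samples at week 4 were separate animals. An exact permutation test of 2 against 2 cannot go below p = 0.333. At week 2, 1 animal a group, no test was made. Levels are CPM with 95% exact Poisson intervals. Total depth was 121544835 to 173614051 UMIs a retina, with a median of 1994 to 3128 per barcode. Scripts were tested on simulated counts. For week 4 in rods, 41 of 96 genes changed 2-fold, 83 of 98 changed 4-fold and 15 unchanged genes were called. In Müller cells these counts were 46 of 98, 90 of 97 and 23. In myeloid nuclei they were 11 of 89, 52 of 88 and 5, and over all kept nuclei 40 of 99, 88 of 99 and 21. Unchanged genes were thus a larger share of the simulated calls than the threshold of 0.05 aims at. The members and gene lists were chosen with earlier results of these data known. All 24 members were to be described, with values for every member called at week 4 or past 2-fold at week 2, others with at least 100 UMIs by leading class, and the 3 largest and 3 smallest changes of the other lists. Other symbols of the superfamily were not analysed here. Alternatives were DESeq2 1.42.0, no low-count filter, no mitochondrial filter, a stricter gate, nuclei with at least 1000 UMIs, the size factors of DESeq2 in edgeR, a fit of all 6 animals and leaving out each retina. R 4.3.3 and Python 3.11.15 were used.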

Additional observations from a re-analysis of the deposited data

How the results depend on the processing

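Of 302 values of the 29 member fold changes called at week 4 under alternatives, 241 stayed on the same side of the threshold, 61 kept their direction but lost their call, and 0 reversed. Of 254 values of 24 called fold changes named from the other lists, under the same alternatives but added after the data were seen, 244 stayed, 10 lost their call and 0 reversed. Of 72 levels recomputed under other gates, 67 moved by less than 1 SD and 5 by more. The 14 member tests called higher at week 4 in the gated classes became 7 with DESeq2, 27 with no filter on low counts and 8 with the stricter gate, where 3 of the 14 fell below the filter on low counts, and 4 to 12 when 1 retina was left out. The 2 called lower became 1 without the mitochondrial filter, 1 with the stricter gate and 0 to 3 when 1 retina was left out. Over all kept nuclei the 13 called higher became 6 to 13 when 1 retina was left out, and the 0 called lower became 1 with DESeq2 and 0 to 1 when 1 retina was left out. Calls lost without a retina came with fewer samples, the lone sample of a group being assumed to vary like the other group. For the difference between weeks the 0 called higher became 1 with no filter on low counts, and the 0 called lower became 0 to 1 when 1 retina was left out. At week 2 the 15 higher became 28 at a limit of 1.5-fold and 7 at 3-fold, and the 4 lower became 2 with the stricter gate and 7 at 1.5-fold. No paired analysis was possible because the AAV and vehicle retinas came from different animals. Depth limits the vehicle values of the myeloid and astrocyte classes, several of which rest on 0 to 3 UMIs.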
